A study of Homo sapiens with 4 samples.

Results

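Replacement histone variants are the histones that cells make outside S phase, and 9 of their genes were followed here in RNA of HEK293T cells. The genes were taken by symbol from the deposited table: H3-3A, H3-3B, H2AZ1, H2AZ2, MACROH2A1, MACROH2A2, H1-10, H2AJ and H2AX. All 9 were found, among 51740 rows in all. HEK293T is a line derived from human embryonic kidney that carries the SV40 large T antigen. The cells were wildtype and crosslinked with formaldehyde, and RNA was taken from a nuclear fraction (2 libraries) and a cytoplasmic fraction (2 libraries). Libraries started from 400 ng of RNA depleted of ribosomal RNA and were sequenced from both ends for 100 nt. The level used throughout is the authors' mean normalized count, a single value per gene that pools all 4 libraries and both fractions. It therefore has no replicate error, and the nuclear and cytoplasmic levels of a gene were not compared here. Each library counts equally in this mean after normalization, whatever part of the RNA of a cell its fraction held. The mean is thus not a whole-cell level.

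Most histone mRNAs are made in S phase from compact genes without introns, and end in a stem-loop in place of a poly(A) tail. Replacement variants supply chromatin at other times, mostly from genes with introns whose mRNAs are polyadenylated. H3.3 is placed into nucleosomes by the HIRA complex and by DAXX with ATRX. H2A.Z is exchanged into nucleosomes near transcription start sites by the SRCAP and EP400 remodelling complexes. The macroH2A proteins carry a large extra domain and are known from silenced chromatin, and H2AX is the variant that is phosphorylated around broken DNA.

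The ends of these transcripts were examined first, because they separate the replacement variants from the S phase histones. The variant genes were listed as mostly having introns and poly(A) tails, so the counts below describe the list and are no test of it. In GENCODE 44 on hg38, 9 of 9 genes had a protein-coding transcript with a polyadenylation hexamer, AATAAA or ATTAAA on the sense strand, in its last 40 bases. The same held for 9 of 63 replication-dependent histone genes (14.3%) and for 86.4% of 17063 protein-coding genes with a mean above 0. The canonical transcripts of 7 variant genes carried the hexamer within 60 bases of their end, and these stretches are shown with the hexamer in capitals.
H3-3A (chr1:226071980-226072009, plus strand): ctattaaaatacATTAAActatacctgctt
H3-3B (chr17:75776436-75776465, minus strand): ggatgagactaaAATAAAatttttgaagtt
H2AZ1 (chr4:99948090-99948119, minus strand): gtggataagttcAATAAAggtcatatccca
MACROH2A2 (chr10:70112241-70112270, plus strand): tgaaaggaaaaaAATAAAagatccagtgtc
H1-10 (chr3:129314775-129314804, minus strand): ttttttgggcacAATAAAgcgtttaaacct
H2AJ (chr12:14774993-14775022, plus strand): ccggcgggagccAATAAAgttggtgaaaat
H2AX (chr11:119093881-119093910, minus strand): tggactaattttATTAAAggattgtttttt

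The canonical transcripts of H2AZ2 and MACROH2A1 had neither hexamer in their last 60 bases, but other coding transcripts of both genes did. In every case shown, 14 to 24 bases were left between the hexamer and the transcript end. It is a match of letters in the annotation, and cleavage at these positions was not measured.

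The histone stem-loop was searched for as a 6-base arm beginning with GG, a 4-base loop of TTTC or TTTA, and the reverse complement of the arm. It lay in the last 150 bases of a coding transcript in 52 of 63 replication-dependent genes (82.5%), in 0.346% of all protein-coding genes with a mean above 0, and in 0 of 9 variant genes. H2AX nevertheless held a stem-loop inside its canonical transcript of 1592 nt, 52 bases after the last sense codon and 1024 bases before the annotated end. Its arms are in capitals.
H2AX (chr11:119094898-119094913, minus strand): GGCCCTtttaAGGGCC

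No other variant gene had such a hairpin anywhere in its canonical transcript. H2AX was thus the one gene of the 9 with both kinds of end signal in its canonical transcript. Which end its transcripts used was not measured, as ribosomal RNA depletion keeps RNAs with and without a poly(A) tail.

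Paired genes encode H3.3 and H2A.Z, and their sequences bear on whether reads can be told apart. The coding sequences of H3-3A and H3-3B are 408 nt each without the stop codon, and 320 bases were identical (78.4%). Of the 88 differing bases, 77 (87.5%) lay at the last base of a codon. The first 60 coding bases of the pair are printed with the 13 differing bases in capitals.
H3-3A: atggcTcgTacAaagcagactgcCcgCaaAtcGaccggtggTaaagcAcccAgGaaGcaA
H3-3B: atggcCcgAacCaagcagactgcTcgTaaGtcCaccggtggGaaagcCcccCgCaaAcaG

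H2AZ1 and H2AZ2 shared 309 of 384 coding bases (80.5%), and 64 of the 75 differences (85.3%) were at the last base of a codon. They are printed in the same way, with 12 differing bases.
H2AZ1: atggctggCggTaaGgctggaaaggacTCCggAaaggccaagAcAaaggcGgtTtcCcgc
H2AZ2: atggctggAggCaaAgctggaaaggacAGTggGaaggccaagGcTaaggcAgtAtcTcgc

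MACROH2A1 and MACROH2A2 were further apart, with 754 of 1116 coding bases identical (67.6%) and 55.8% of the differences at the last codon base. The longest identical stretch in the canonical transcripts was 14 nt for the H3.3 pair, 23 nt for the H2A.Z pair and 17 nt for the macroH2A pair. All were far below the read length of 100 nt, so a full read of one partner did not match the other.

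The partner was not the only possible source of confusion. H3-3A has processed pseudogenes, which are copies of its mRNA inserted elsewhere in the genome. Of the 971 windows of 100 bases in its canonical transcript, 624 (64.3%) occurred letter for letter in a transcript of another gene. The pseudogene H3P6 (chromosome 2, 174719908 to 174720318) held 312 of these windows, as did ENSG00000290018, a lncRNA gene annotated around it. H3P16 held 186, H3P47 119, H3P36 75 and H3P14 34. The means of H3P16, H3P47, H3P36 and H3P14 were 5.54, 2.99, 1.80 and 1.58. H3P6 and ENSG00000290018 had no value under their identifiers. For the other 8 variant genes the shared part was at most 1.95%, for H2AZ2, whose 57 shared windows lay in its pseudogene H2AZ2P1. H3-3B shared 16 windows with H3-5, a variant gene that resembles it. How reads that fit several places were treated is not given for these libraries in the sources used here, so the part of this sharing in the level of H3-3A was not tested.

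**Figure D1:**
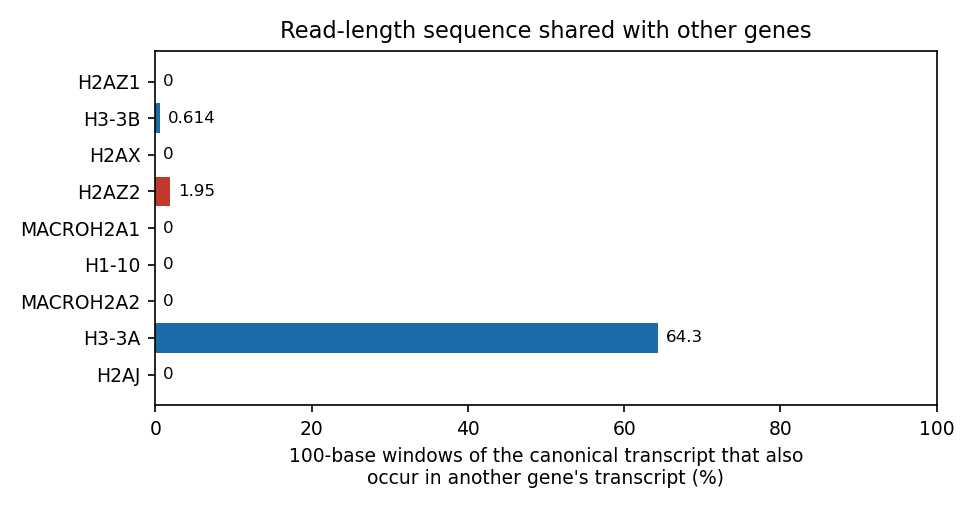
Share of the 100-base windows of each canonical transcript that also occur in a transcript of another gene (x axis, percent), for the 9 variant genes (y axis, ordered by level). H3-3A stands at 64.3%, and the next gene, H2AZ2, at 1.95%.

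Levels were described next. The authors' mean was 6370 for H2AZ1, 6009 for H3-3B and 5775 for H2AX, the top group of the variant genes. H2AZ2 followed at 3906 and MACROH2A1 at 3184. H1-10, the linker histone variant also known as H1x, stood at 2374, MACROH2A2 at 1889 and H3-3A at 1537. H2AJ was far apart from these 8, with a mean of 1.02. The median over the 9 genes was 3184, against 446 over 17116 protein-coding genes with a mean above 0. In the ranking of these coding genes H2AZ1 was at place 396 and H3-3A at place 3706, and 5 of 9 variant genes were in the top 10%.

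The reads behind each mean could be bounded. A gene with 1 read in 1 library has a mean fixed by the size factor of that library, and 4 such steps stood out in the low values, for size factors of 0.755, 0.853, 1.19 and 1.34. Up to a mean of 2.0 lay 9806 genes, and for each of them exactly 1 set of whole read numbers gave its mean. The mean of H2AZ1 accordingly stood for 19226 to 34167 reads and that of H3-3A for 4639 to 8244 reads. The counting error was at most 0.721% for H2AZ1 and 1.47% for H3-3A, the largest among the 8 abundant genes. These limits cover counting error only.

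For H2AJ the combination was unique, at 1 read in each of the 4 libraries. Because every library held the same number, the read number of H2AJ is known per library without knowing which step belongs to which fraction. Its normalized level per library is not, as the size factors differ. With 4 reads in all, a difference between fractions was not detectable at this depth. H2AJ (chromosome 12, 14774405 to 14778002) overlapped no other gene in GENCODE 44. Of the 521 windows of 100 bases in its canonical transcript, 0 occurred letter for letter in a transcript of another gene.

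The length of a gene changes what a mean says, since long transcripts give more reads. Per kb of exon, taken as the union of all annotated exons, H2AX was highest at 3627, followed by H2AZ1 at 2806, H1-10 at 1566 and H3-3B at 980. H2AZ2 was at 558, H3-3A at 402, MACROH2A1 at 187, MACROH2A2 at 126 and H2AJ at 0.306. The median of protein-coding genes on this scale was 81.9 per kb of exon. H2AX and H2AZ1 were above 99.2% and 99.0% of these genes, while MACROH2A2 was above 59.9% and H2AJ above 7.72%. No replicate error can be set against these differences.

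**Figure D2:**
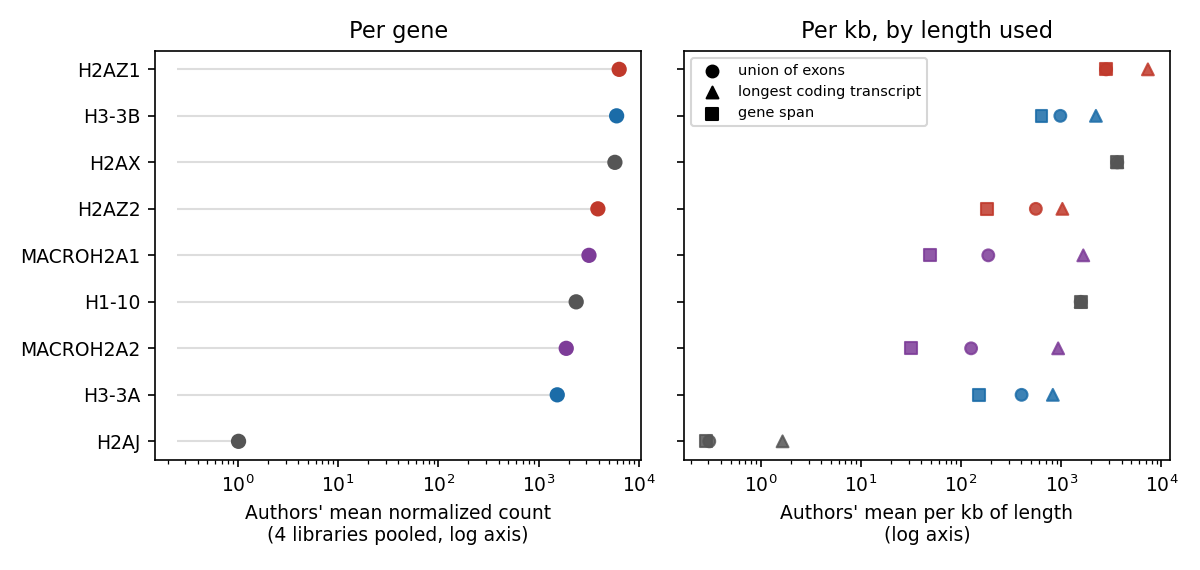
Left, authors' mean normalized count of each variant gene over 4 pooled libraries (log axis), and right, the same mean per kb of exon union (circles), of the longest coding transcript (triangles) and of the gene span (squares), also on a log axis; points are single values without error bars. H2AJ lies at 1.02, while the others lie between 1537 and 6370, and the macroH2A genes move most with the length used.

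H2AX and H1-10 are single-exon genes in their canonical form and span 1.59 kb and 1.52 kb. Their exon union, span and longest coding transcript have the same length in the annotation, so their per kb values were the same. The canonical transcript of H2AJ also has 1 exon, but the exon union of that gene is 3.33 kb. H2AZ1 has 5 exons within 2.27 kb, and other annotated transcripts keep its introns, so that its exon union fills the gene. Per kb of its longest coding transcript, of 868 nt, H2AZ1 stood at 7338, above H2AX at 3627 and H3-3B at 2221. The order of H2AX and H2AZ1 thus turned with the length used. A length of H2AX that ends at its stem-loop was not used.

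The macroH2A genes were the longest, at 65.5 kb for MACROH2A1 (chromosome 5, 135334381 to 135399914) and 59.7 kb for MACROH2A2 (chromosome 10, 70052544 to 70112282). The median span of protein-coding genes was 32.3 kb, and the other 7 variant genes were below it. MACROH2A1 had a level of 187 per kb of exon, 48.6 per kb of span and 1661 per kb of its longest coding transcript. For MACROH2A2 the values were 126, 31.6 and 932. The ratio of MACROH2A1 to MACROH2A2 was 1.49, 1.54 and 1.78 on these scales, so MACROH2A1 was the higher one on each. Reads in introns were counted together with reads in exons, so a mean of such a gene can include unspliced RNA.

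**Figure D3:**
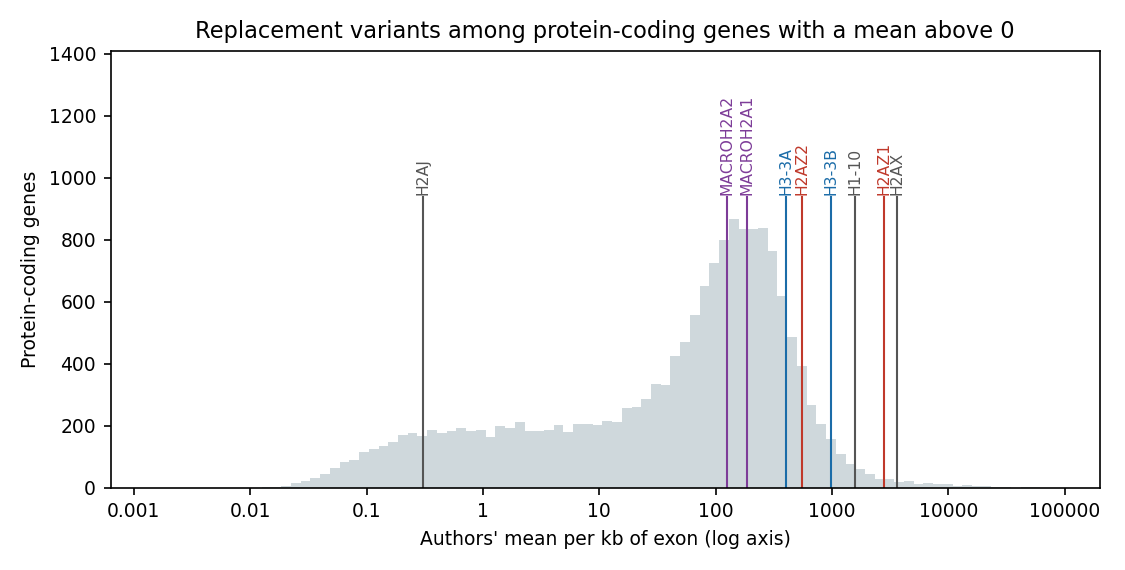
Histogram of the authors' mean per kb of exon (x axis, log scale) over protein-coding genes with a mean above 0 (y axis, number of genes), with a vertical line for each variant gene. H2AX, H2AZ1 and H1-10 lie in the upper tail, the macroH2A genes near the peak and H2AJ at 0.306 in the lower part.

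Overlapping genes limited some values, because the authors took stretches with more than 1 gene out of their annotation. In GENCODE 44, a later release than theirs, other genes covered 67.2% of the exon bases of MACROH2A1, 59.0% of those of H1-10 and 47.6% of those of MACROH2A2. The cover was taken over whole gene spans, introns included, on either strand. The partners were PITX1-AS1 and ENSG00000270021 for MACROH2A1, H1-10-AS1 for H1-10 and AIFM2 for MACROH2A2. The covered part was 19.2% for H3-3B, 15.4% for H2AZ1 and 1.25% for H3-3A. H2AX, H2AZ2 and H2AJ had no overlapping gene. Over the exon bases outside other genes, a length chosen after seeing the data, H1-10 stood at 3822 per kb, above H2AX at 3627 and H2AZ1 at 3318, so the order of these genes turned here too. MACROH2A1 stood at 570.0 per kb and MACROH2A2 at 241 on this scale. Which bases the authors left out of their own annotation was not examined.

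Within the H3.3 pair, H3-3B (chromosome 17, 75776434 to 75785893) had a mean 3.91 times that of H3-3A (chromosome 1, 226061851 to 226072019), with a counting interval of 3.79 to 4.04. H3-3B held 79.6% of the summed means of the pair, and 70.9% per kb of exon. The canonical transcript of H3-3B was the longer one, at 2705 nt against 1070 nt. The means were also divided by the windows of 100 bases found in no transcript of another gene, 2590 for H3-3B and 347 for H3-3A. The share of H3-3B was then 34.4%, and H3-3A was 1.91 times higher. That division takes every shared read as lost and every counted read as exonic. It also treats each read alone, although fragments were read from both ends. Whether the second read of a fragment placed it was not examined. Over all windows of the canonical transcripts, shared or not, the share of H3-3B was 59.3%. The higher gene of the H3.3 pair thus depended on whether the shared windows were counted in the length.

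Within the H2A.Z pair, H2AZ1 (chromosome 4, 99948086 to 99950355) exceeded H2AZ2 (chromosome 7, 44826791 to 44848087) by 1.63 times in the mean, with a counting interval of 1.59 to 1.67. The ratio was 5.03 per kb of exon, 7.15 per kb of longest coding transcript and 15.3 per kb of span. H2AZ1 was the higher gene on all of these scales, and its share of the pair ran from 62.0% of the means to 93.9% per kb of span. H2AZ2 spans 21.3 kb, of which 14.3 kb was intron.

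The variants were then set beside the replication-dependent genes of their own class, which package the newly copied DNA. The 6 variant genes of class H2A summed to 21124, against 106806 for 16 H2AC genes, a share of 16.5% (95% Wilson interval 16.4% to 16.6%, for counting error only). Per kb of exon the share was 3.52%, over the 14 of 16 H2AC genes with a matched length. The replication-dependent genes are short, with a median exon length of 0.497 kb over all classes. H3-3A and H3-3B together held 9.70% of class H3 beside 13 H3C genes, and 1.13% per kb of exon. H1-10 held 2.67% of class H1 beside 6 genes, and 1.35% per kb of exon. Among single genes, 8 H2AC genes had a higher mean than H2AZ1, 3 H3C genes a higher mean than H3-3B and 3 of the 6 H1 genes a higher mean than H1-10. For the replication-dependent genes, neither shared sequence nor overlap with other genes was measured. Their single values and the class sums behind these shares are therefore uncertain. Some of these genes were nearly without counted reads, such as H1-5 with a mean of 0.293 and H3C8 with 0.397. Whether overlap with other genes lowered these counts was not tested.

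**Figure D4:**
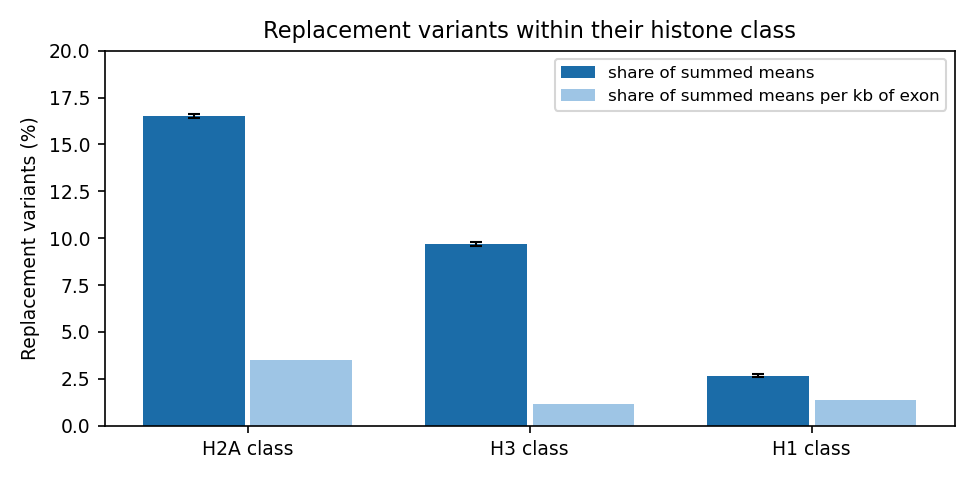
Share of replacement variant genes (y axis, percent) in their histone class, by summed authors' means (dark bars, with 95% Wilson intervals for counting error) and by summed means per kb of exon (light bars, no interval). The shares are 16.5%, 9.70% and 2.67% by mean and 3.52%, 1.13% and 1.35% per kb of exon for classes H2A, H3 and H1.

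Pseudogene rows held few reads. Of 49 rows named as H3 or H2A.Z pseudogenes, 18 had a mean above 0, and the highest was 5.54 for H3P16. The H3 pseudogenes summed to 18.3, or 0.242% of H3-3A and H3-3B together, and the H2A.Z ones to 8.43, or 0.0820% of H2AZ1 and H2AZ2. The largest, H3P16, equalled 0.360% of the mean of H3-3A. H3P6 and H2AZ2P1 had no value and are not in these sums. How reads that fit several places were treated is not known here, so the sums do not measure how far genes and copies were confused.

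Several other variant histone genes were near or at 0. CENPA, the H3 variant of centromeres, had a mean of 536. H3-5 stood at 4.78, with 16 reads in all, and H3-4 at 4.0, with 13 reads. H1-8 had 2 reads and H1-7 had 1 read in the 4 libraries. A further 5 genes, H2AP, H2AB1, H2AB2, H2AB3 and H2BW1, were listed at 0.

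Genes that chaperone or deposit the variants were all present. Each of 25 listed genes had a mean of at least 520, and 0 of them were below the median of protein-coding genes per kb of exon. The highest per kb of exon were SSRP1 at 1544, a subunit of the FACT chaperone, RUVBL2 at 1528, an ATPase of the remodelling complexes that exchange H2A.Z, and VPS72 at 855, the subunit that binds H2A.Z. The lowest were UBN2 at 100.0, a partner of HIRA, INO80 at 139, the motor of another remodelling complex, and DMAP1 at 150.0. HIRA stood at 599 per kb of exon, DAXX at 528 and ATRX at 184. The median of the list was 402 per kb of exon, against 558 for the 9 variant genes.

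Levels of the genes listed for the cell line were uneven. Per kb of exon, VIM, NEFL and NEFM stood at 3528, 3349 and 4474, each above at least 99.2% of protein-coding genes. KRT18 stood at 571 and KRT8 at 128, while PAX2, a kidney developmental factor, was low at 9.59. Among markers of other cells, ALB (hepatocytes), PTPRC (leukocytes) and PECAM1 (endothelium) had means of 0.793, 1.76 and 6.22, and COL1A1 (fibroblasts) a mean of 213.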

How the data were processed

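HEK293T libraries from 2 nuclear and 2 cytoplasmic fractions were sequenced. Per the study's methods and the submitters' processing notes, the authors aligned reads to hg38 with STAR and counted them with featureCounts 2.0.2, exons and introns together, over an annotation derived from GENCODE. Removing the overlap of genes and counting introns both affect the level of a gene. The deposited table gives 1 signal per gene, the authors' DESeq2 mean normalized count over all 4 libraries. Its other 5 columns of values hold the authors' own comparison of the fractions and were not used. Read numbers of single libraries were recovered for low means only and could not be tied to a fraction, so the intended test of the fractions by a count model was not run.

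Means were divided by lengths from GENCODE 44, which is on the same assembly. Identifiers matched without version for 99.95% of protein-coding genes with a mean above 0. Lengths were the union of exons, the gene span or the longest protein-coding transcript. Size-factor steps were the most frequent low means that are not combinations of others, and were tested on simulated data. Sequences came from the GENCODE 44 transcripts. Python 3.11.15, pandas 2.3.3 and scipy 1.17.1 were used. All 9 variant genes are named. For each other list, the rule was to name the 3 highest and 3 lowest genes per kb of exon, and pseudogenes above 1% of their parent's mean. HIRA, DAXX, ATRX, pseudogenes sharing windows and further variants were named after their values were seen. The members and lists were chosen with earlier results of these data known. Replicates of a fraction were biological, per the study's methods. 1 gene of the list of further variants is not reported here.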

Additional observations from a re-analysis of the deposited data

How the results depend on the processing

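No paired analysis was possible because no value of a single library could be tied to its label, and for the same reason the replicate block and leaving out a replicate were not run. The number of variant genes in the top 10% of protein-coding genes per kb of exon was 5, with 6 per kb of span and 8 per kb of longest coding transcript. Ranked by mean among all genes with a mean above 0 it was 7, and among coding genes with a mean over 50 it was 4, against 5. Per kb of exon, the class shares moved to 3.52% for H2A, 1.13% for H3 and 1.35% for H1. With H2AW counted among the replication-dependent genes, chosen after seeing the data, the H2A share was 16%. Adding the pseudogene rows left the 3 shares within their counting intervals, but H3P6 and H2AZ2P1 had no value to add. The share of H3-3B in its pair was 70.9% per kb of exon and 80.8% per kb of span. It was 34.4% over windows found in no transcript of another gene, chosen after seeing the data, which reverses the order of the pair. Over all windows it was 59.3%. Windows stand for single reads and leave out the second read of a fragment. The share of H2AZ1 was 83.4%, 93.9%, 85.9% and 86.2% in the same order. The counts of genes with the hexamer (9) and the stem-loop (0) were the same in windows of 60 and 300 bases. Depth limits H2AJ, with 4 reads.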
